A study of Mus musculus with 16 samples.

Results

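Liver and lung metastases of pancreatic ductal adenocarcinoma (PDAC) were compared after Smad4 had been restored in the tumour cells. The 5 samples were the columns of the deposited peak table for liver and lung metastases after doxycycline withdrawal, Liv_ON (n = 2) and Lung_ON (n = 3), out of 16 samples in the series, each from its own mouse. All of them carried Ptf1a-Cre, an oncogenic driver allele, the reporter Rosa26 LSL-rtTA3-IRES-mKate2 and, in the Col1a1 homing cassette, a GFP-linked hairpin RNA that silences Smad4 under doxycycline (KC-shSmad4), of which the model has 2 versions. Cre from the Ptf1a promoter acts in the pancreatic lineage. The tumour cells were transplanted into hosts without these alleles, so they and not the host cells carry the recombined alleles and the red fluorescent reporter mKate2. The hosts were athymic female Foxn1 nu mice, which lack mature T cells, and the transplanted cells were tumour-derived lines from male mice. Liver metastases were seeded with 400000 cells through the spleen, which was then removed, and grew for 5 weeks under doxycycline. Lung metastases were seeded with 250000 cells through the tail vein and grew for 6 weeks. Doxycycline was then withdrawn for 14 days according to the labels (the column names of the lung samples say day 15), and 60000 mKate2+ cells were sorted per sample. Organ, route of injection, splenectomy, cell dose and time of growth changed together and cannot be told apart. How many parental lines stand behind these 5 samples is not given in the sources used here. The same organs with Smad4 off, Liv_OFF (n = 2) and Lung_OFF (n = 3), kept under doxycycline, came from other mice and served as a comparison that shares no sample with Liv_ON and Lung_ON.

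ATAC-seq reads out open chromatin: a transposase cuts DNA where nucleosomes are loose or absent, and the reads pile up as peaks at promoters and enhancers. Smad4 is the common partner of the receptor-activated Smad proteins of the TGF-beta pathway and is inactivated in many pancreatic cancers. Epithelial cells hold their enhancers open with factors such as Grhl2, Elf3, Klf5 and Hnf4, while cells that have moved toward a mesenchymal state use factors such as Zeb, Snai, Twist, Runx and AP-1. A peak value below is the authors' normalised read count, and a call means 0.58 or more on the log2 scale in either direction at a Benjamini-Hochberg adjusted p of at most 0.1 in limma over 136630 nuclear peaks. Higher and lower always mean Liv_ON relative to Lung_ON. In bulk samples, fewer cells with an open site and a less open site in every cell cannot be told apart.

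The 5 libraries held 26064306 to 34183223 reads in nuclear peaks, with a median of 45 to 53 reads per peak. The Liv_ON samples did not lie equally far from the lungs. Across all peaks, Liv_ON 1 and Liv_ON 2 correlated with each other at a Spearman coefficient of 0.949, Liv_ON 1 with the Lung_ON samples at 0.849 to 0.880, and Liv_ON 2 with them at 0.782 to 0.820. Marker peaks were checked against the labelled tissue. All 5 tumour epithelium markers (Epcam, Cdh1, Krt8, Krt18 and Krt19) had a start-site peak, and their summed level was 31678 and 40135 in Liv_ON against 21554 to 23951 in Lung_ON. Of 9 hepatocyte markers, 7 including Alb had no peak within 1000 bp of the start site, while Apob and Ttr had one and both were called higher (sum 719 and 1036 against 418 to 608). Of 8 lung epithelium markers 3 had a start-site peak and none was called (sum 1125 and 1269 against 967 to 1018), and the surfactant gene Sftpc had no such peak. Of 8 leukocyte markers only Cd68 and Csf1r had one, with Cd68 called higher (sum 628 and 672 against 310.0 to 384), and Ptprc had none. Of 5 endothelial markers 4 had one, with Pecam1 called lower (sum 74.1 and 112 against 165 to 269.5). Of 6 fibroblast and stellate cell markers 5 had one and none was called (sum 1036 and 1377 against 1216 to 1435). The part of host cells in the differences below was not tested.

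Smad4-restored liver and lung metastases differed widely in open chromatin. Of 136630 peaks, 48889 (35.8%) were called, 24026 (17.6%) higher and 24863 (18.2%) lower. The median log2 fold change of the calls was 1.54 for the higher and −1.40 for the lower peaks. The largest differences were on the liver side: 2499 peaks were called higher by at least 3 on the log2 scale and 712 by at least 4, against 231 and 5 that were called lower by as much. The samples of the groups did not overlap at 81737 of all peaks (59.8%) and at 97.9% of the called ones. The count depended on one library. Without Liv_ON 2, 18467 peaks were called (10675 higher and 7792 lower), the remaining liver sample being assumed to vary like the other groups, and without Liv_ON 1 there were 48699.

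Called peaks lay mostly away from promoters. Promoter peaks, with a start site of a protein-coding gene within 1000 bp, made up 10.8% of all peaks, 6.92% of the higher and 2.80% of the lower calls. Introns held 50.3% of the higher and 50.5% of the lower calls, against 47.0% of all peaks. Intergenic peaks made up 38.6% of the higher and 43.4% of the lower calls, against 38.3%. The lower peaks lay farther from genes, with a median distance to the nearest start site of 44495 bp against 22129.5 bp for the higher and 26834 bp for all peaks. Their median GC content was 44.4%, against 46.5% for the higher and 45.8% for all peaks. At the higher peaks the median of the Lung_ON means was 30.7 normalised counts and that of the Liv_ON means 106, and at the lower peaks the values were 93.6 and 34.8. The 7420 CpG-rich promoter peaks (observed over expected CpG above 0.6) had a median log2 fold change of 0.23, and 5.13% of them were called higher and 2.17% lower. The median over all peaks was −0.005. The promoter median fell to 0.072 under quantile normalisation and 0.025 under GC correction, so small positive values at start sites below are to be read against it.

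The liver-lung difference with Smad4 restored was set against the one with Smad4 off, measured in other mice. There, 67891 peaks (49.7%) were called, in the same fit and with the spread estimated over all 16 samples. Of the 24026 higher peaks, 21108 were called higher with Smad4 off as well, which is 87.9% of the restored calls and 67.5% of the Smad4-off calls. Of the 24863 lower peaks, 20835 were called lower in both states, or 83.8% and 56.9%. Opposite calls numbered 11 and 4. Across all peaks the log2 fold changes of the 2 states correlated at a Pearson r of 0.857, a description over 136630 peaks of the same genome that share sequence and base composition and are not independent. At the peaks called lower with Smad4 off, the median log2 fold change was −1.69 with Smad4 off and −1.08 with Smad4 restored, and at the peaks called lower with Smad4 restored it was −1.58 and −1.40. Peaks chosen in one state tend to show the larger median in that state. At the lower peaks chosen after restoration the Smad4-off median was the larger one all the same, but the restored liver samples differed. Over the peaks called lower with Smad4 off, the mean log2 deviation was −0.51 in Liv_ON 1 and −1.13 in Liv_ON 2. In Liv_OFF, a group that helped to choose these peaks, it was −1.48 and −1.38. For the higher peaks, the median log2 fold changes with Smad4 off and restored were 1.44 and 1.18 at the peaks called with Smad4 off. At those called with Smad4 restored they were 1.55 and 1.54. The test of the difference between the states, the interaction term in limma, called 0 peaks (0% of those tested), with 7171 (5.25%) at an unadjusted p under 0.05. The quasi-likelihood test of edgeR called 0 as well and the Wald test of DESeq2 called 48.

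The peaks of smallest interaction p lay in the intergenic region nearest to Trib2 (chr12:16169964-16172180), in an intron of Nav2 (chr7:49440451-49441057) and near Kcna4 (chr2:107326976-107327739). At the first of them the log2 fold change of liver over lungs was −2.77 with Smad4 off and −0.48 with Smad4 restored, and the difference of 2.29 ± 0.39 (SE) had an adjusted p of 0.927 in limma. At Nav2 the values were −2.59 and −0.22, and at Kcna4, a potassium channel gene, −3.69 and −0.98. In the other direction, the values were 0.93 with Smad4 off and −0.50 with Smad4 restored near Hils1, 0.46 and 0.011 at the promoter of the retinoic acid receptor gene Rarg, and 0.34 and −0.13 at that of Tns2, a focal adhesion gene. None passed the adjusted threshold in limma, while DESeq2 called the peaks at Trib2, Nav2, Kcna4 and Hils1.

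**Figure D1:**
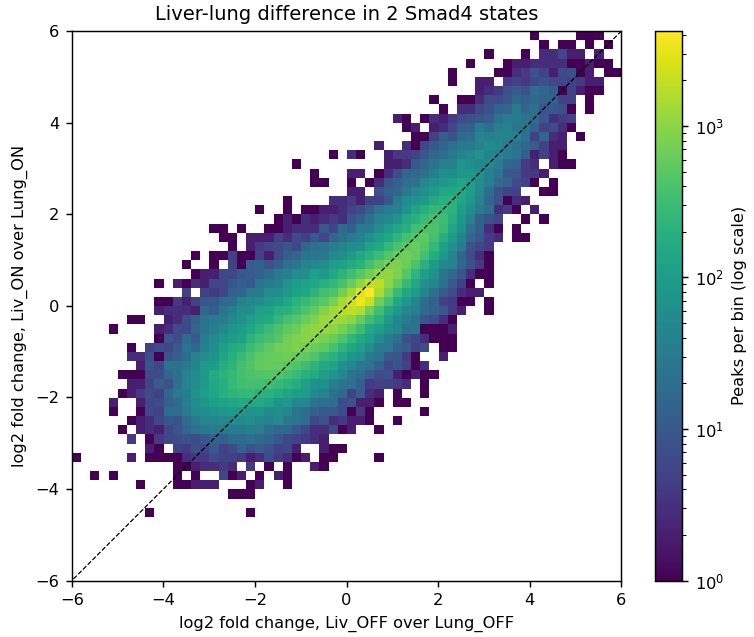
Binned plot of the log2 fold change of liver over lungs at each of 136630 peaks with Smad4 off (horizontal axis) and restored (vertical axis), with the number of peaks per bin as colour on a log scale and a dashed line of equality. Most peaks lie near the line (Pearson r 0.857), and at the lower left the cloud lies above it, with medians of −1.69 and −1.08 at peaks called lower with Smad4 off. At these peaks Liv_ON 1 lay nearer to the lungs than Liv_ON 2.

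Since the Smad4-off samples had no part in Liv_ON and Lung_ON, the peaks called between the Smad4-off groups gave a scale for placing the restored samples. The spread behind these calls was estimated over all 16 samples, the restored ones included. Over the 31293 peaks higher in Liv_OFF, the mean log2 deviation from the average of the 16 samples was 0.93 in Liv_ON 1 and 1.24 in Liv_ON 2, against −0.29, −0.28 and −0.36 in Lung_ON. The groups did not overlap (difference 1.40, exact two-sided permutation p = 0.1, the smallest that 2 against 3 samples allow). Over the 36598 peaks lower in Liv_OFF, the values were −0.51 and −1.13 in Liv_ON against 0.46, 0.20 and 0.21 in Lung_ON (difference −1.11, exact two-sided permutation p = 0.1). Liv_ON 1 had 79.9% of the distance of Liv_ON 2 from the Lung_ON mean on the liver peaks and 56.3% on the lung peaks. Among the lungs with Smad4 off, Lung_OFF 2 also lay between the organs, at 0.068 and −0.11, with its own group part of the choice of peaks. The primary tumours with Smad4 restored (Panc_ON, n = 3) lay on the lung side: at 93.7% of the higher and 86.3% of the lower calls their mean was nearer to Lung_ON than to Liv_ON. At the higher calls the median log2 level was 6.72 in Liv_ON, 4.94 in Lung_ON and 4.67 in Panc_ON, a description with no test, as the calls were chosen on Liv_ON and Lung_ON.

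**Figure D2:**
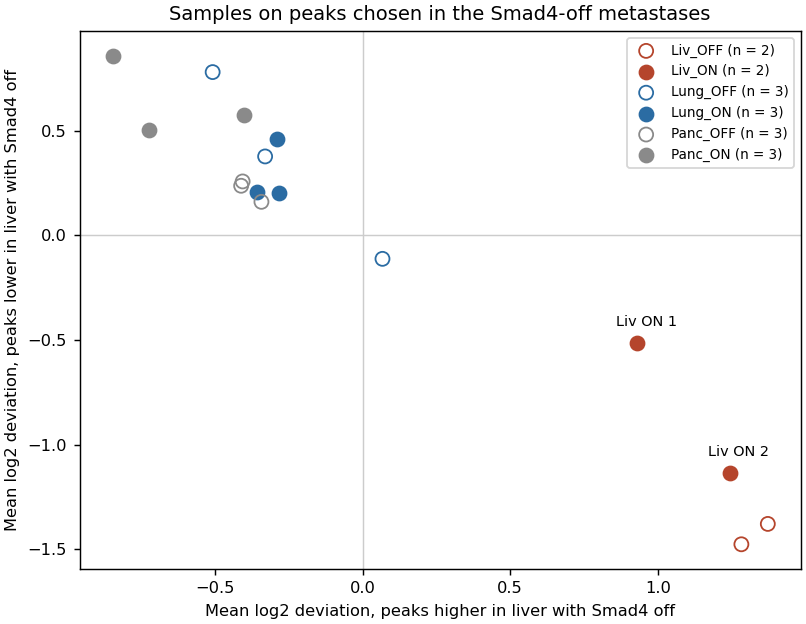
Each point is 1 sample, placed by its mean log2 deviation over peaks higher (horizontal axis) and lower (vertical axis) in liver with Smad4 off; filled points are Smad4-restored, open points Smad4-off samples, and the open liver and lung points helped to choose the peaks. The Liv_ON samples sit at 0.93 and 1.24 on the horizontal axis and the Lung_ON samples between −0.36 and −0.28.

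The peaks of smallest p whose samples did not overlap, at most 1 per gene, are described next. The stretch of 200 bases with most motif matches is printed for 3 of the first 4 higher and for the first 4 lower peaks, to show the DNA of the sites that differed most clearly between the organs. Sequences are from the plus strand of GRCm38.p6 (mm10), 5′ to 3′, and capitals mark matches to 12 motifs on either strand. These were GGGNGTGG for KLF factors, TTAATNATT for HNF1, CAAAGTNCA for HNF4, TGTTTAC for forkhead (FOX) factors, CNGGAAGT for the ELF and ETS family, TGTGGTT for RUNX factors, TGANTCA for AP-1, CATTCCA for TEAD factors, GTCTAGAC for the palindromic SMAD site, AGATAAG for GATA factors, ATCAATA for the ONECUT family and CCANNAGGG for CTCF. No motif is contained in another, though matches can overlap. The 3 stretches that were more open in liver follow.
Osbpl5 (chr7:143723988-143724187): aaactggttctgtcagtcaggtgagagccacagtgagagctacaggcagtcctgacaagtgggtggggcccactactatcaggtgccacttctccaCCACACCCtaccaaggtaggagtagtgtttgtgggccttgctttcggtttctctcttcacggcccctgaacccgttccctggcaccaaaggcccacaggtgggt
Zfp750 (chr11:121543705-121543904): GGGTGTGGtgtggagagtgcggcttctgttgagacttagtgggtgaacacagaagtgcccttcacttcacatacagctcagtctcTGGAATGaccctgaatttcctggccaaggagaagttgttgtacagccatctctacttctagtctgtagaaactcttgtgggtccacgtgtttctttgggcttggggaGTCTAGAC
Ptpru (chr4:131722931-131723130): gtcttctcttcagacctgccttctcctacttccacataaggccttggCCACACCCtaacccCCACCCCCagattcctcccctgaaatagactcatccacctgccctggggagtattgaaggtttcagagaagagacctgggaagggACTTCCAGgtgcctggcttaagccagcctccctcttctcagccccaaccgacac
The 4 stretches that were less open in liver follow.
Cmtr1 (chr17:29669965-29670164): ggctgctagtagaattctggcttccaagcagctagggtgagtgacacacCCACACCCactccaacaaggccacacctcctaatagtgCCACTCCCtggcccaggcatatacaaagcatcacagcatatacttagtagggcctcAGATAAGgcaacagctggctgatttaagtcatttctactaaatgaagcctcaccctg
Gucy2g (chr19:55244455-55244654): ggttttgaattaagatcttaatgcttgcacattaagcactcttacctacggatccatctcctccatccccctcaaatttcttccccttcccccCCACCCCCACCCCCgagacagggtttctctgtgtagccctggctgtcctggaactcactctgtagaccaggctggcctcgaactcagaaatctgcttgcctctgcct
Spcs3 (chr8:54449526-54449725): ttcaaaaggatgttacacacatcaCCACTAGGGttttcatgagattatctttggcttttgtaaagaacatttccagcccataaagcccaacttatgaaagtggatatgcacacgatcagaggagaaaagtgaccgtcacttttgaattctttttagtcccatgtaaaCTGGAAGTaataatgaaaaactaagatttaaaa
Sh3rf1 (chr8:61193934-61194133): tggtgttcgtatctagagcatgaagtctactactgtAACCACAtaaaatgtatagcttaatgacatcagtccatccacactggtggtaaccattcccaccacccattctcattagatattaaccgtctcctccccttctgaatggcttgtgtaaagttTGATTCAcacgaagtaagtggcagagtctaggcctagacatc

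The Osbpl5 stretch held matches to KLF, the Zfp750 stretch to KLF, SMAD and TEAD and the Ptpru stretch to ELF/ETS and KLF. Among the lower peaks, the matches were to GATA and KLF at Cmtr1, KLF at Gucy2g, CTCF and ELF/ETS at Spcs3 and AP-1 and RUNX at Sh3rf1. For scale, 7.69% of 200-base windows at peak centres held a KLF match, 7.91% a RUNX match and 28.1% an AP-1 match, but the printed stretches were chosen for their matches, so the counts are a description of letters and not of bound factors.

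The higher peak of smallest p lay in an exon of Inava, a regulator of epithelial junctions (chr1:136223091-136224882). Its normalised counts were 934 and 1238 in Liv_ON, against 84.2, 113 and 91.4 in Lung_ON (log2 fold change 3.48 ± 0.25, SE, adjusted p = 1.65e-05). At the Osbpl5 intron peak (chr7:143723741-143724457), in a gene for a lipid transfer protein, the counts were 373 and 412 in Liv_ON against 15.9 to 18.2 in Lung_ON (log2 fold change 4.42 ± 0.33, SE, adjusted p = 1.65e-05). The largest fold among these 12 was at an intronic peak assigned to Zfp750, a factor of squamous epithelial differentiation (chr11:121543404-121545802), with 1167 and 1551 in Liv_ON, against 59.5, 29.7 and 23.3 in Lung_ON (log2 fold change 5.24 ± 0.42, SE, adjusted p = 2.19e-05). Every liver sample lay far above every lung sample at these 3 sites, which had been chosen for samples without overlap. At the intergenic peak assigned to the receptor phosphatase gene Ptpru, 97703 bp from its start site, counts were 621 and 616 in Liv_ON, against 68.5, 70.9 and 52.3 in Lung_ON. The tyrosine kinase gene Src held an intronic peak with 448 and 524 in Liv_ON, against 64.0, 37.4 and 48.5 in Lung_ON. The remaining higher peaks were assigned to Bdh1, Efhd2, Lnx1, Raph1, Plcg2, Vsig10 and Rps27a, with log2 fold changes from 2.41 at Efhd2 to 4.64 at Vsig10, and each was higher with Smad4 off as well (1.86 to 3.85 at those genes).

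The lower peaks of smallest p were open in both organs and differed by smaller folds. Their lowest Liv_ON counts, 125 and 74.1, were at Prag1. The Cmtr1 intron peak (chr17:29669571-29671758), in the gene of an mRNA cap methyltransferase, had counts of 370.4 and 286 in Liv_ON, against 888, 966 and 881 in Lung_ON (log2 fold change −1.48 ± 0.13, SE, adjusted p = 2.19e-05). At the peak near Gucy2g (chr19:55244218-55245894), counts were 664 and 534 in Liv_ON, against 1476, 1608 and 1477 in Lung_ON (log2 fold change −1.35 ± 0.12, SE, adjusted p = 2.55e-05). A peak in an intron of Plat, the gene of tissue plasminogen activator (chr8:22762974-22766933), had 748 and 709 in Liv_ON, against 1739.6, 1640.0 and 1551 in Lung_ON (log2 fold change −1.17 ± 0.12, SE, adjusted p = 3.62e-05). The groups were separated at each of them by a gap wider than the spread within either group, in peaks chosen for samples without overlap. The others were Spcs3, Sh3rf1, Rab4a, Chn1, Rasa3, Tiam2, Prag1, Pgbd5 and Trib1, with log2 fold changes from −2.22 at Prag1 to −1.09 at Trib1. Of these 12 lower peaks, 7 lay on chromosome 8, where the median deviation of CpG-rich promoter peaks was −0.0094 in Lung_ON 1, 0.19 in Lung_ON 2 and 0.12 in Lung_ON 3, against −0.027 and −0.089 in Liv_ON. On chromosome 19 it was 0.32 in Lung_ON 2. With each chromosome's level taken out of every sample, all 24 named peaks were still called. They had been chosen for the smallest p, so this says little about the weight of chromosome level at other calls. Gains of whole chromosomes were not tested.

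Promoters of epithelial regulators were among the 10 higher promoter peaks of smallest p. Counts at the promoter of Grhl2, a transcription factor that maintains epithelial junctions (chr15:37232345-37234730), were 644 and 722 in Liv_ON, against 59.5, 30.7 and 32.7 in Lung_ON (log2 fold change 4.09 ± 0.38, SE, adjusted p = 2.62e-05). At Esrp1, a splicing factor of epithelial cells (chr4:11384926-11388601), they were 1482 and 1787 in Liv_ON, against 304, 252 and 208 in Lung_ON (log2 fold change 2.69 ± 0.25, SE, adjusted p = 2.62e-05). At the adhesion gene Nectin4 (chr1:171370028-171370780) they were 207 and 284 in Liv_ON, against 8.98, 10.5 and 6.53 in Lung_ON (log2 fold change 4.68 ± 0.44, SE, adjusted p = 2.62e-05). The liver samples were many times above every lung sample at all 3 promoters, which had been chosen for samples without overlap. The keratin gene Krt23 had counts of 1709.8 and 2180.5 in Liv_ON, against 449, 460.1 and 412 in Lung_ON. At the promoter peak assigned to the GTPase-activating protein gene Arhgap32 the counts were 305 and 499 in Liv_ON, against 11.2, 4.79 and 8.40 in Lung_ON, a log2 fold change of 5.49 ± 0.52 (SE). Lnx1, Mctp2, Kcne1, Gna15 and Gpa33 completed the 10, with log2 fold changes from 2.51 at Gpa33 to 4.05 at Mctp2.

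The promoters that were lower in liver differed by smaller folds. At Chrna1, a muscle acetylcholine receptor gene (chr2:73579871-73581283), counts were 233 and 109 in Liv_ON, against 793, 718 and 751 in Lung_ON (log2 fold change −2.24 ± 0.26, SE, adjusted p = 5.93e-05). Col6a1, which encodes a chain of collagen VI (chr10:76725328-76726587), had 229 and 125 in Liv_ON, against 531, 633 and 677 in Lung_ON (log2 fold change −1.84 ± 0.24, SE, adjusted p = 1.06e-04). At Lgr5, a receptor of R-spondins and marker of epithelial stem cells (chr10:115585293-115588284), counts were 593 and 395 in Liv_ON, against 1143, 1166 and 1183 in Lung_ON (log2 fold change −1.26 ± 0.16, SE, adjusted p = 1.05e-04). At Chrna1, Col6a1 and Lgr5, Liv_ON 1 lay between Liv_ON 2 and the lungs. Pde6c (log2 fold change −1.68) and its neighbour Rbp4, a retinol carrier gene (−1.61), both lay on chromosome 19. The neuronal tubulin gene Tubb3 (−1.62) lay on chromosome 8. Slc9a3r2, Gm11563, Adamts7 and Shisa4 ranged from −1.12 at Gm11563 to −0.94 at Adamts7.

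The 250 bases before the start site are shown for one promoter of each kind, Epcam and Col6a1, chosen after their values were seen. They come from the RefSeq promoter windows on GRCm38.p6, read in the direction of the gene, with the same motifs in capitals.
Epcam (chr17:87635729-87635978, plus strand): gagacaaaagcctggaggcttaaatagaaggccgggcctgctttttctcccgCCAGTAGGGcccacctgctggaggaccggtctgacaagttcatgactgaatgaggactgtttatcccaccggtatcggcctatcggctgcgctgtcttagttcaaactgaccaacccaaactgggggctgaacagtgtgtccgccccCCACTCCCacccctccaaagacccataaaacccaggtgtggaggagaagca
Col6a1 (chr10:76726045-76726294, minus strand): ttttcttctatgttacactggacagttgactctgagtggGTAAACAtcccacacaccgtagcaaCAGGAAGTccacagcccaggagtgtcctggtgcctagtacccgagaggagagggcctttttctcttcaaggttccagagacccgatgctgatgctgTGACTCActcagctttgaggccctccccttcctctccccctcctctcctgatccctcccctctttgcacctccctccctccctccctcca
The Epcam window held matches to CTCF and KLF and the Col6a1 window to AP-1, ELF/ETS and FOX. Over 32851 RefSeq windows of this length, 15.9% held the KLF motif, 5.07% the CTCF, 6.75% the AP-1, 7.58% the ELF/ETS and 3.17% the FOX motif.

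Gene lists were read by the peaks assigned to each gene, the nearest start site within 100 kb. For the 13 epithelial identity genes, 83 of 122 assigned peaks (68.0%) were called higher in liver and 3 (2.46%) lower, beside 17.6% and 18.2% of all peaks. Their median log2 fold change was 1.25, and 11 of the 13 start-site peaks were called higher. At the start site of the adhesion gene Epcam, counts were 1539 and 2073 in Liv_ON, against 499.8, 532 and 398 in Lung_ON (log2 fold change 1.92 ± 0.21, SE, adjusted p = 4.92e-05). The claudin gene Cldn4, of tight junctions, had 2420.3 and 3556 in Liv_ON, against 591, 628 and 440.4 in Lung_ON (log2 fold change 2.42 ± 0.28, SE, adjusted p = 5.65e-05), and Cldn7 a log2 fold change of 2.00. Ocln, another tight junction gene, had 1881 and 2818 in Liv_ON, against 772, 917 and 548 in Lung_ON. Log2 fold changes were 2.06 at Ovol1, a repressor of mesenchymal genes, 1.06 at the epithelial factor Elf3, 1.16 at Krt7, 0.86 at Krt8 and 0.62 at Krt19. The start sites of Cdh1 (0.50) and Krt18 (0.38) did not reach the fold threshold, which Cdh1 passed with chromosome centring and without Liv_ON 1. Around Grhl2, 16 of 27 peaks were called higher and 1 lower, around Epcam 16 of 24 and 0, and around Ocln 9 of 10 and 0. Without Liv_ON 2, 51 peaks of the list were called higher and 0 lower, and without Liv_ON 1, 87 and 2. Under quantile normalisation the start sites of Krt8 and Krt19 were not called, and Krt19 also not under GC correction or without Liv_ON 2.

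The 11 genes of epithelial-mesenchymal transition (EMT) and the mesenchymal state had calls almost only in the other direction. For this list 2 of 123 assigned peaks (1.63%) were called higher in liver and 50 (40.7%) lower. The peaks had a median of −0.80 on the log2 scale. At their start sites 2 were called lower. Twist1, a transcription factor of EMT, had 768 and 381 in Liv_ON, against 1085, 1152 and 1085 in Lung_ON (log2 fold change −1.03 ± 0.21, SE, adjusted p = 0.00183), and the N-cadherin gene Cdh2 1175 and 1032 in Liv_ON, against 1673, 1585 and 1913 in Lung_ON (log2 fold change −0.64 ± 0.10, SE, adjusted p = 4.18e-04). Neither was called without Liv_ON 2, and Cdh2 also not without Lung_ON 3. Log2 fold changes at the start sites of Zeb2 (−0.52), Vim (−0.40), Fn1 (−0.36) and Zeb1 (−0.34) missed the fold threshold (Zeb2 and Vim passed it under quantile normalisation), and Snai1 (0.15) and Snai2 (−0.13) lay near 0. The distal peaks held most of the calls. With start-site peaks included, 13 of 26 peaks at Cdh2 were called lower, 8 of 17 at Zeb1, 7 of 9 at Snai1 and 6 of 6 at Twist1. At Prrx1, a homeobox factor of mesenchyme, counts were 149 and 41.6 in Liv_ON, against 146, 163 and 208 in Lung_ON, so that Liv_ON 1 lay within the lung range and Liv_ON 2 below it (adjusted p = 0.132 in limma, called under GC correction and without Liv_ON 1). Over all 123 peaks of the list the mean log2 deviation was −0.41 in Liv_ON 1 and −1.18 in Liv_ON 2, against 0.17, −0.25 and −0.19 in Lung_ON. Liv_ON 1 had 29.5% of the distance of Liv_ON 2 from the lungs here, and 76.8% for the epithelial list. Without Liv_ON 2, 16 peaks of the mesenchymal list were called lower, and without Liv_ON 1, 55.

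**Figure D3:**
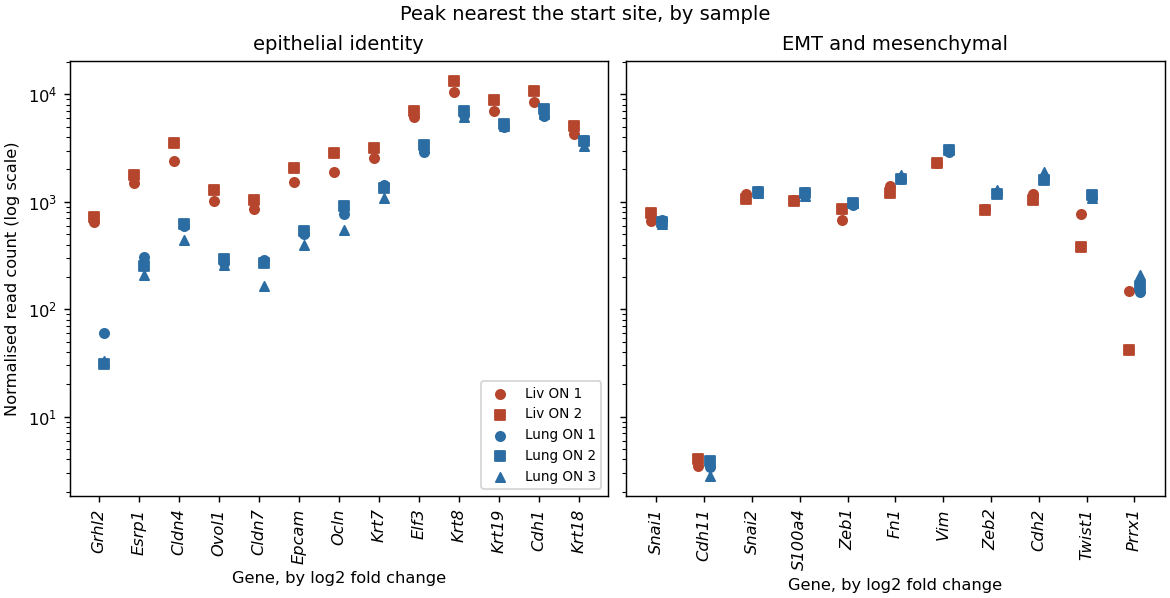
Normalised read count (log axis) of the peak nearest the start site in each Liv_ON (red) and Lung_ON (blue) sample, for the epithelial (left) and the EMT and mesenchymal (right) genes in order of log2 fold change. At Grhl2 the liver samples sit at 644 and 722 and the lung samples between 30.7 and 59.5, while at Prrx1 Liv_ON 1 lies among the lung samples.

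Matrix genes were called in both directions. For the 12 matrix and basement membrane genes, 30 of 205 assigned peaks (14.6%) were called higher in liver and 71 (34.6%) lower, and the start-site peaks split 3 against 3. The laminin genes Lama3 and Lamb3, whose products belong to a laminin that anchors epithelial cells to the basement membrane, were called higher. Lama3 had 1551 and 2284 in Liv_ON, against 277, 348 and 225 in Lung_ON (log2 fold change 2.75 ± 0.27, SE, adjusted p = 3.07e-05), and Lamb3 a log2 fold change of 1.62. The collagen genes Col6a2, Col5a1 and Col12a1 were called lower. Col6a2 had 232 and 112 in Liv_ON, against 478, 592 and 591 in Lung_ON (log2 fold change −1.77 ± 0.27, SE, adjusted p = 2.94e-04), Col5a1 1087 and 494 in Liv_ON, against 1395, 1638 and 1817 in Lung_ON and Col12a1 a log2 fold change of −0.88. At Col6a2 all 10 assigned peaks were called lower, at Col6a3 13 of 22 and at Col5a1 13 of 26. Without Liv_ON 2 the start sites of Col5a1 and Col12a1 were no longer called, and the list held 9 higher and 32 lower peaks.

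The study had picked 8 Smad4 effector genes from tumours of this model, so that their direction is no independent evidence. The study read them by RNA, with Smad4 on against off within each organ and not liver against lungs. For these genes, 10 of 87 assigned peaks (11.5%) were called higher in liver and 34 (39.1%) lower. Without Liv_ON 2, 15 were called lower. Besides Col6a1, the start site of the matricellular gene Ccn4 was called lower, with 300.5 and 80.2 in Liv_ON, against 403, 614 and 627 in Lung_ON (log2 fold change −1.78 ± 0.50, SE, adjusted p = 0.0132), a call that was lost without Liv_ON 2. The cytokine gene Il11 had 508 and 489.5 in Liv_ON, against 839, 682 and 672 in Lung_ON (log2 fold change −0.54, not called), and the integrin gene Itga5 1152 and 1027 in Liv_ON, against 1619, 1588 and 1479 in Lung_ON (−0.52, not called), with 7 of 8 peaks at Itga5 called lower. Il11 and Itga5 were called under quantile normalisation and GC correction. The start sites of Has2 (−0.028) and Ccbe1 (0.12) lay near 0 and were not called. At Has2 5 of 18 peaks were called lower and 2 higher, and at Ccbe1 5 of 17 and 0. Id1, an inhibitor of basic helix-loop-helix factors and a direct target of Smad signalling, was called higher, with 7674 and 9634 in Liv_ON, against 5019, 5195 and 5423 in Lung_ON (log2 fold change 0.72 ± 0.12, SE, adjusted p = 4.61e-04), a call lost under quantile normalisation and without Liv_ON 2. In the paper, Id1 RNA rose in lung and fell in liver metastases on restoration, the other way but in another measure and contrast. The cell-cycle inhibitor gene Cdkn1c had 422 and 437 in Liv_ON, against 385, 412 and 418 in Lung_ON at its start site (log2 fold change 0.084 ± 0.15, SE, not called), while 4 of its 10 assigned peaks were called higher and 0 lower.

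In the TGF-beta pathway itself no start-site peak was called. For the 16 genes, 55 of 278 assigned peaks (19.8%) were called higher in liver and 34 (12.2%) lower, and the median log2 fold change of their start sites was 0.19, near that of CpG-rich promoters. Smad4 had 889 and 990.2 in Liv_ON, against 811, 752 and 844 in Lung_ON at its promoter (log2 fold change 0.23 ± 0.11, SE, adjusted p = 0.121). Since the hairpin acts on the messenger RNA, the Smad4 promoter is no check of restoration. Among receptors, Tgfbr2 had 1887 and 2193 in Liv_ON, against 1378, 1397 and 1556 in Lung_ON (log2 fold change 0.50) with 11 of 28 peaks called higher, and Acvr1b 7 of 13, while the co-receptor gene Tgfbr3 was at −0.54. Without Liv_ON 2, 19 peaks of the list were called higher, and without Liv_ON 1, 53. The start site of Tgfbr3 was called lower under GC correction, without Liv_ON 1 and without Lung_ON 1, and those of Tgfbr2 and Smad6 were called higher without Liv_ON 1. Among the inhibitors, Smad7 was at 0.06 and Smad6 at 0.47. Ltbp1, which stores latent TGF-beta in the matrix, had 12 of 49 peaks called lower and 7 higher.

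Transcription factors of liver and foregut endoderm had more higher than lower calls. For the 14 genes, 49 of 197 assigned peaks (24.9%) were called higher in liver and 31 (15.7%) lower, and 4 start-site peaks were called higher. Hnf4a, a nuclear receptor of hepatocytes and gut epithelium, had 157 and 239.7 in Liv_ON, against 44.9, 51.8 and 61.6 in Lung_ON (log2 fold change 1.87 ± 0.35, SE, adjusted p = 0.00117). The pioneer factor gene Foxa1 had 1916 and 2371 in Liv_ON, against 905, 990.1 and 1071 in Lung_ON (log2 fold change 1.11 ± 0.15, SE, adjusted p = 1.58e-04), and Hnf4g a log2 fold change of 0.77 with 11 of 21 peaks called higher. The start site of Hnf4g was not called without Liv_ON 2. Without Liv_ON 2, 18 peaks of the list were called higher. Foxa2 (0.057), Gata4 (0.11) and Onecut2 (0.14) were not called at their start sites, and at Foxa2 8 of 22 peaks were called lower.

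KLF factors bind GC-rich promoters and help to hold epithelial identity. Of the 11 KLF genes, 47 of 185 assigned peaks (25.4%) were called higher in liver and 23 (12.4%) lower. The Klf4 promoter had 3715 and 4139.5 in Liv_ON, against 3073, 3289 and 3519.8 in Lung_ON (log2 fold change 0.25 ± 0.094, SE, not called), close to the median of CpG-rich promoters, with 7 of 20 peaks at the locus called higher and 4 lower. At Klf5 10 of 23 were called higher and 1 lower, and at Klf3 10 of 26 and 1. Without Liv_ON 2, 25 peaks of the list were called higher. The start site of Klf15 was called higher (0.99), though not without Liv_ON 1, while at Klf2, on chromosome 8, 6 of 9 peaks were called lower. For the 4 RUNX genes, 5 of 112 assigned peaks (4.46%) were called higher in liver and 38 (33.9%) lower. Without Liv_ON 2, 16 were called lower. The start site of Runx3, a RUNX factor known from T cells and invasive pancreatic cancer, was called lower, with 306 and 177 in Liv_ON, against 421, 592 and 451 in Lung_ON (log2 fold change −1.05 ± 0.24, SE, adjusted p = 0.00426), and was not called without Liv_ON 2. The Runx1 start site had 2585 and 3054 in Liv_ON, against 2313, 2388 and 2569.9 in Lung_ON (log2 fold change 0.21, not called), whereas 17 of 54 peaks at the locus were called lower and 5 higher. Runx2 had 10 of 25 peaks called lower and a start-site value of −0.27. Of the 9 AP-1 genes, 22 of 93 assigned peaks (23.7%) were called higher in liver and 17 (18.3%) lower, and the start site of Atf3 was called higher (0.61), a call lost under quantile normalisation, GC correction and without Liv_ON 2.

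For the 8 YAP and TEAD genes, 20 of 154 assigned peaks (13.0%) were called higher in liver and 27 (17.5%) lower, and no start site was called. That of Ankrd1, a YAP target gene (−0.54), was called lower under quantile normalisation, without Liv_ON 2 and without Lung_ON 1. For the 7 pancreatic and ductal factors, 8 of 47 assigned peaks (17.0%) were called higher in liver and 7 (14.9%) lower. The Pdx1 promoter had 2637 and 2862 in Liv_ON, against 2575, 2504 and 2567 in Lung_ON and that of Sox9 a log2 fold change of 0.0084. For the 10 gastric and mucin genes, 5 of 51 assigned peaks (9.80%) were called higher in liver and 10 (19.6%) lower. Their start sites split, with Anxa10 called higher (1.03) and Tff1 (−0.90), Vsig1 (−0.66) and the peak nearest Gkn2 (−0.88) called lower, and Anxa10, Tff1 and Vsig1 were not called without Liv_ON 2, nor Vsig1 under GC correction.

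**Figure D4:**
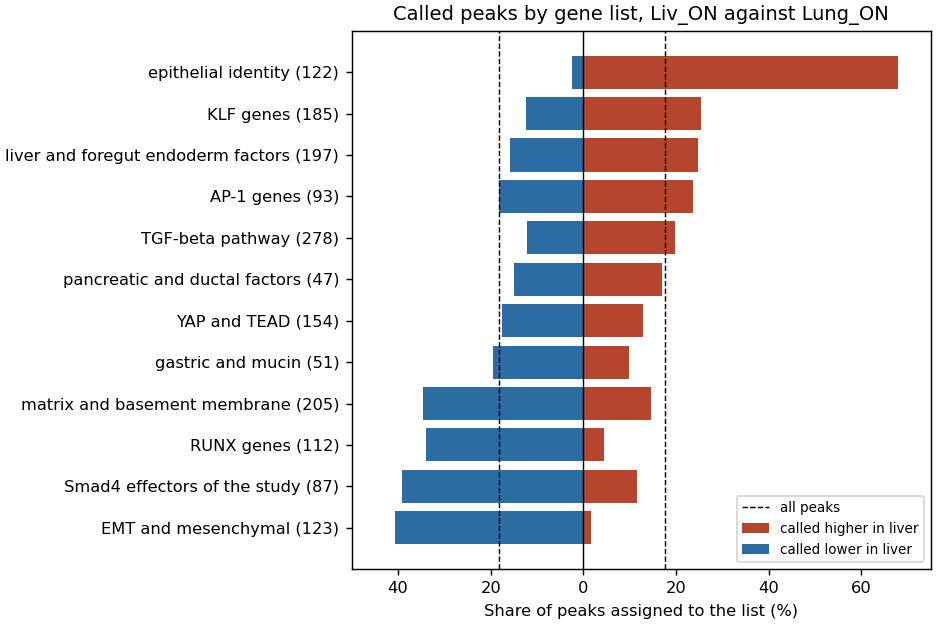
Share of the peaks assigned to each gene list (number of peaks in brackets) that was called higher (red, right) or lower (blue, left) in Liv_ON than in Lung_ON, with dashed lines at the shares over all peaks (17.6% and 18.2%). Epithelial identity genes reach 68.0% on the higher and EMT and mesenchymal genes 40.7% on the lower side.

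Some genes held calls in 1 direction only. Of 17817 protein-coding genes with an assigned peak, 2594 had at least 5 calls, and at 505 of them all calls were higher and at 423 all were lower, while 1666 held calls in both directions. The largest excess of higher peaks was at Shroom3, an organiser of apical actin (29 higher and 0 lower of 49 peaks). It was followed by the Rac exchange factor gene Tiam1 (27 of 31), Arhgap32 (25 of 27), the adhesion gene Nectin1 (24 of 27), the homeobox gene Barx2 (22 of 29) and Tmem45b (22 of 24), each with 0 lower. Barx2, Tmem45b and Arhgap32 lie close together on chromosome 9. The median log2 fold change over the peaks of Tiam1 was 3.90, of Arhgap32 3.19 and of Nectin1 2.46. At the Tiam1 start site the counts were 1311 and 1394 in Liv_ON against 579, 487 and 745 in Lung_ON. Rapgef5 (21 higher), Map7 (21, with 1 lower), Casz1 (18) and Crybg1 (18) completed the 10, the last 2 taken by name from ties. Over all peaks, 17.6% were called higher and 18.2% lower. On the lung side the largest excess was at the scaffold gene Frmd4a (30 lower and 0 higher of 50 peaks), then at Iqsec1 (22 of 43), at the podocalyxin gene Podxl (20 of 24) and at Rbfox1, a splicing factor gene (20 of 27). The kinase gene Dclk1, a marker of tuft cells, had 18 of 29 peaks called lower. Its start-site counts were 822 and 493 in Liv_ON against 1258, 1668 and 1868 in Lung_ON. Nebl (20 lower, with 2 higher), Tnfsf11, the gene of RANK ligand (18), Kirrel3 (17), Rcan2 (17) and Apba1 (16, by name from ties) followed. At Frmd4a the start-site peak was not called (log2 fold change 0.028 ± 0.11, SE), whereas that of Podxl was called lower (−1.04 ± 0.14). With Smad4 off, 33 Frmd4a peaks, 19 Podxl peaks and 34 Shroom3 peaks were called in these directions.

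Motif content was read in the central 300 bp of each peak, so that wider peaks had no more room for matches. The AP-1 motif, bound by Fos and Jun proteins, was found in 24.2% of the higher and 50.3% of the lower calls, against 34.1% of all peaks. The RUNX motif was found in 7.90% of the higher and 14.2% of the lower calls, against 10.9% of all peaks. The KLF motif went the other way, in 14.4% of the higher and 8.04% of the lower calls, against 11.0% of all peaks, as did those of HNF4 (4.12% of the higher and 1.96% of the lower calls, against 2.66% of all peaks) and HNF1 (3.70% of the higher and 2.08% of the lower calls, against 2.53% of all peaks). The direction was the same when promoter peaks were left out, with AP-1 in 25.1% and 51.1%, and KLF in 14.3% and 7.80%. The ELF/ETS motif was in 7.40% of the higher and 5.86% of the lower calls, against 6.71% of all peaks, and the CTCF motif in 5.78% of the higher and 4.84% of the lower calls, against 5.75% of all peaks. TEAD was in 7.78% of the higher and 7.10% of the lower calls, against 7.08% of all peaks, and the palindromic SMAD motif in 0.416% of the higher and 0.426% of the lower calls, against 0.327% of all peaks, or 447 peaks.

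A motif level per sample was taken as the difference in mean log2 deviation between peaks that hold the motif and all others. For AP-1 the level was −0.21 and −0.43 in Liv_ON, against 0.26, 0.15 and 0.088 in Lung_ON, a difference of −0.49. For RUNX it was −0.16 and −0.31 in Liv_ON, against 0.05, 0.047 and 0.02 in Lung_ON, a difference of −0.27. For KLF it was 0.18 and 0.25 in Liv_ON, against −0.051, −0.0027 and −0.021 in Lung_ON, a difference of 0.24, which was 0.15 under GC correction. The groups did not overlap for these 3 families (exact two-sided permutation p = 0.1 for each, the smallest that 5 samples allow). For HNF4 the level was 0.23 and 0.46 in Liv_ON, against −0.055, 0.024 and 0.17 in Lung_ON, and for HNF1 0.16 and 0.36 in Liv_ON, against −0.034, 0.013 and 0.14 in Lung_ON. Here the groups differed by 0.30 and 0.22 but the spread within Lung_ON was wide, and the exact permutation p was 0.2 for both. ELF/ETS, TEAD and CTCF also separated the groups (exact permutation p = 0.1), by 0.094, 0.036 and 0.085, of which TEAD was at 0.066 and CTCF at 0.015 under GC correction, while FOX (p = 0.8), SMAD (p = 0.9), GATA (p = 0.5) and ONECUT (p = 0.7, all exact permutation tests) did not. With 12 families at this smallest p, none could pass an adjustment. For AP-1, RUNX, HNF4, HNF1 and KLF alike, Liv_ON 1 lay nearer to the lungs than Liv_ON 2.

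Pairs of motifs spread the calls further. Over all peaks, 18.2% were called lower and 17.6% higher. Of 66317 peaks with none of the KLF, AP-1, RUNX, HNF1 and HNF4 motifs, 13.6% were called lower and 19.6% higher. Of 5007 peaks with both AP-1 and RUNX motifs, 30.9% were called lower and 8.53% higher. With AP-1 alone of the pair the shares were 26.4% and 13.0%. With RUNX alone they were 19.9% and 14.9%, near the shares over all peaks. Of 11151 peaks with KLF but no AP-1 motif, 25.1% were called higher and 10.3% lower, and with both motifs 17.0% and 22.1%. Peaks with an HNF1 or HNF4 but no AP-1 motif had the largest share of higher calls among these sets, 30.8% of 4774, with 10.6% lower. These shares describe overlapping sets of peaks in 5 samples and carry no test.

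**Figure D5:**
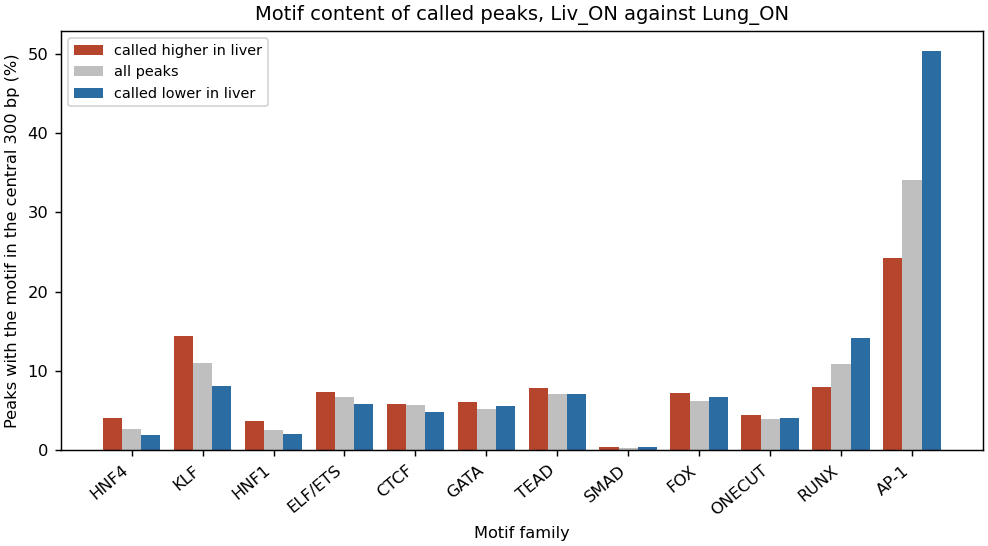
Bars give the share of peaks (from 0, in %) that hold each motif in their central 300 bp, among peaks called higher in Liv_ON (red), all peaks (grey) and peaks called lower (blue), in order of the difference in motif level between the groups. AP-1 stands at 24.2%, 34.1% and 50.3%, and HNF4, at the other end, at 4.12%, 2.66% and 1.96%.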

How the data were processed

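Tumour cells sorted from pancreas, liver and lung tumours were measured by paired-end ATAC-seq in 16 samples. According to the methods of the study, the authors used Bowtie2 for alignment to mm10 and MACS2 for peaks at p 0.001, merged those within 500 bp over samples, counted reads with featureCounts and scaled them with DESeq2 size factors. The deposited values are this normalised coverage signal per peak. Each deposited value divided by the worth of 1 read in its sample came out whole (100% of values, tolerance 0.01), so reads were recovered for count tests. Read shifting for the transposase and removal of duplicates are not given in the sources used here.

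The mitochondrial row was left out. Peaks were annotated on GRCm38.p6 with GENCODE vM21 by the nearest protein-coding start site within 100 kb. log2(value + 1) was fitted in limma 3.58.1 (R 4.3.3) with 6 group means over 16 samples, a mean-variance trend and robust moderation, and p-values were adjusted over all peaks by Benjamini-Hochberg. The scripts were tested on simulated counts. Alternatives were edgeR 4.0.16, DESeq2 1.42.0, other scalings, filters, thresholds and samples left out. The added alternatives were chosen after seeing the data.

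Named peaks were the 12 of smallest p per direction without overlap of samples, the 10 promoter peaks likewise, the 10 genes with the largest excess of calls per direction, the 3 peaks per direction of smallest interaction p, and the start-site peaks of 12 gene lists. The samples compared and the lists were chosen with earlier results of these data known. P-values measure the spread between samples, each stated to be an independent mouse. Some alleles, genes and sequences are not reported here.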

Additional observations from a re-analysis of the deposited data

How the results depend on the processing

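The count of peaks called between Liv_ON and Lung_ON was 42086 to 51169 under other tools, scalings, filters and sets of groups, and 32656 at the stricter limits of 1 on the log2 scale and 0.05 for the adjusted p. Leaving out 1 sample at a time gave 18467 to 48699 calls, the lowest without Liv_ON replicate 2. The interaction had 0 calls in limma and edgeR, 48 in DESeq2, and 0 to 5 with 1 sample left out (1 without Liv_ON replicate 2 and 5 without Lung_OFF replicate 2). With motifs read in the whole peak, the level difference was 0.20 for KLF and −0.17 for RUNX. Under GC correction it was 0.15 for KLF, 0.061 for FOX, 0.066 for TEAD, 0.073 for ONECUT and 0.015 for CTCF. The cause of these moves was not tested.

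With 1 sample left out, the epithelial list held 51 to 87 higher and 0 to 2 lower peaks, and the EMT and mesenchymal list 16 to 55 lower and 1 to 3 higher peaks. Within 25 kb of a start site fewer peaks are assigned, and the lists held 1 lower epithelial peak and 17 lower and 0 higher mesenchymal peaks. All 24 leading peaks and the 20 promoter peaks kept their calls under other tools, scalings, filters and thresholds, except Adamts7 and Shisa4 at the stricter thresholds. They had been chosen for the smallest p in the main fit, so this is no measure of how the other calls hold.

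Deviations of same-numbered Liv_ON and Lung_ON samples correlated at 0.14 and 0.057. With 2 Liv_ON samples these values are not independent, so they cannot decide whether replicate numbers pair the mice. A fit that used replicate numbers as a block called 46312 peaks (44850 of them also called without it), and 45026 with GC correction as well. With 2 and 3 samples a group, an exact permutation test could not go below p = 0.1, and the spread of the liver group rests on 2 samples.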

Other observations

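The share of reads in the mitochondrial row was 2.58% in Liv_ON 1 and 2.55% in Liv_ON 2, against 1.91%, 1.75% and 1.55% in Lung_ON 1 to 3. Over the 75 peaks on chromosome Y, which the male tumour cells carry and the female hosts lack, the summed normalised count was 4629.8 and 5388 in Liv_ON and 5442, 3090.1 and 4601 in Lung_ON, so that Lung_ON 2 stood lowest.

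On distal chromosome 6, in the window that starts at 146 Mb, the median log2 deviation of 331 peaks was 1.30 in Lung_ON 1, against −0.38 and −0.34 in the other Lung_ON samples and −0.64 and −0.81 in Liv_ON. In the comparison group, Lung_OFF 1 stood higher still in this window, at 2.30. Leaving out the distal end of chromosome 6 gave 48710 calls between Liv_ON and Lung_ON.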
